A study of Microcebus murinus with 8 samples.

Results

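The miR-30 family was represented by mmr-miR-30a, mmr-miR-30c and mmr-miR-30e (mmr being the mouse lemur prefix, left out below), which are 3 of the 108 microRNAs listed in each plasma table of the grey mouse lemur (Microcebus murinus, a small primate). The members were chosen by name, with earlier results of these data known, and no measured value entered the rule. Small RNA from blood plasma of animals labelled wild type had been sequenced in 8 samples, 4 from animals on a diet based on dairy fat (samples 1 to 4) and 4 from animals on a diet based on vegetable fat (samples 5 to 8). The labels used here state neither age nor duration of diet. They also do not tell whether the samples of a diet are separate animals, so a p-value here measures spread between samples, part of which may be technical. Both groups received a study diet and no baseline sample was analysed here.

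MicroRNAs are short RNAs that guide Argonaute proteins to messenger RNAs, chiefly through pairing of the seed near their 5′ end, and so lower the output of their targets. All members of the miR-30 family carry the same seed and can act on overlapping sets of targets, while the rest of the molecule differs a little between members. In human and mouse, miR-30a lies beside a copy of miR-30c in a noncoding host transcript, and miR-30e lies beside another copy of miR-30c in an intron of NFYC, a gene for a subunit of the transcription factor NF-Y, so that miR-30c can come from either locus. The family is known there for roles in fat cell differentiation, heart and kidney cells, autophagy and vessel sprouting, and its members circulate in plasma, where the cell of origin cannot be read from the RNA itself.

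The deposited values were reads per 1000000 (RPM) relative to the 108 listed microRNAs, so each value is a share of a fixed total. Each table's values were whole multiples of a single step, to within 0.01 of a step, and the step was taken as the value of 1 read. It implied totals of 1.41 to 3.44 M reads (M, 1000000) on dairy fat and 1.06 to 4.0 M on vegetable fat. Only reads on the 108 listed microRNAs are counted in them, so the depth of the whole library is not known. These totals lay in separate ranges, with dairy sample 1 and vegetable samples 6 and 8 between 1.06 and 1.86 M and the other 5 samples between 3.10 and 4.0 M. MiR-486, an abundant red cell microRNA, took 5.36 to 8.75% of the reads on dairy fat and 5.48 to 10.5% on vegetable fat. MiR-191, which is abundant in platelets, took 15.5 to 20.04% and 14.7 to 20.8%. Liver markers had 0 of 4 fixed names among the 108, so a liver contribution was not analysed here.

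MiR-30e was the most abundant of the 3 listed members, miR-30a the next and miR-30c the least abundant, and this order held in 8 of 8 samples. MiR-30e, the member from the NFYC intron in human and mouse, stood at 21384, 21342, 34273 and 21174 RPM in dairy samples 1 to 4. On vegetable fat it stood at 25799, 22217, 40109 and 32244 RPM in samples 5 to 8. The 3 lowest values were all from dairy fat and lay close together, but dairy sample 3 exceeded 3 of the 4 vegetable fat samples, so the diets overlapped. The diets were fully apart for 0 of the 108 listed microRNAs, so overlap is not particular to the miR-30 members. In plasma, release by more cells and more release per cell cannot be told apart. Among the 108 microRNAs miR-30e ranked between 7 and 9 in each sample.

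MiR-30a, which in cell culture is known to act on the autophagy gene BECN1, stood at 11581, 8253, 10055 and 7562 RPM in dairy samples 1 to 4. In vegetable samples 5 to 8 it stood at 8994, 10088, 6704 and 10049 RPM. Both the highest value, in dairy sample 1, and the lowest, in vegetable sample 7, lay outside the range of the other diet, and the remaining 6 samples were intermixed. Its rank among the 108 ran from 11 to 17.

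MiR-30c, known in mice for lowering the output of MTTP, a protein needed to assemble lipoproteins in liver, stood at 2189, 1326, 1902 and 1750 RPM in dairy samples 1 to 4. The vegetable fat values were 1677, 1583, 2480 and 3244 RPM in samples 5 to 8. Vegetable samples 7 and 8 lay above every dairy fat sample, and vegetable samples 5 and 6 lay below 3 of the 4 dairy fat samples. Its rank ran from 25 to 31.

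**Figure D1:**
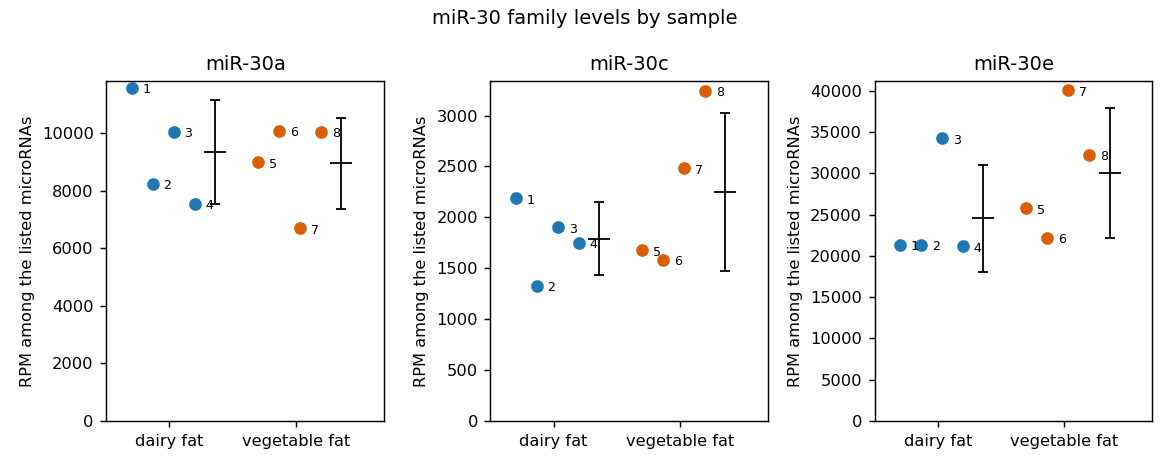
Level of each miR-30 member in RPM among the 108 listed microRNAs, by diet, with each point a sample labelled by its number and the bar giving mean ± SD (n = 4). The diets overlap for all 3 members, as for every listed microRNA. Dairy sample 3 and vegetable sample 7 are high for miR-30e, and vegetable sample 7 is the lowest for miR-30a.

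Counting error was small beside these spreads. The implied reads per sample were 30120 to 160601 for miR-30e, 10666 to 34565 for miR-30a and 2938 to 9931 for miR-30c. The counting error of a single value, taken as the inverse square root of its reads, was at most 0.576% for miR-30e, 0.968% for miR-30a and 1.84% for miR-30c. The coefficients of variation over the 8 samples were 26.7%, 17.4% and 30.3%. Whether reads or unique molecules had been counted is not given in the sources used here, so these errors cover counting only. On the log2 scale the SD over samples was 0.26 for miR-30a, and 10 of the 71 microRNAs with a mean of at least 100 RPM had a smaller one. The SD was 0.37 for miR-30e and 0.41 for miR-30c, near the median of 0.40 over those 71.

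Together the members took 3.57% ± 0.73 of the listed reads (SD, n = 4) on dairy fat and 4.13% ± 0.73 (SD, n = 4) on vegetable fat. The single shares were 3.52, 3.09, 4.62 and 3.05% in dairy samples 1 to 4 and 3.65, 3.39, 4.93 and 4.55% in vegetable samples 5 to 8. Dairy sample 3 and vegetable samples 7 and 8 held the 3 highest shares, and they were also the 3 samples with the most miR-30e.

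Of the summed reads of the 3 listed members, miR-30e made up 70.2% ± 6.0, miR-30a 24.5% ± 5.81 and miR-30c 5.22% ± 1.05 (SD, n = 8). No other miR-30 name was among the 104 microRNAs tested. The family total here therefore means the values under these 3 names, and any other member is not reported separately. Neither aligner nor reference set is stated, so it is not known whether reads of closely alike members, listed or not, were told apart. The shares and the ratios between members carry that limit. By diet, miR-30e held 68.4% ± 5.53 (SD, n = 4) on dairy fat and 72.1% ± 6.64 (SD, n = 4) on vegetable fat. MiR-30a held 26.5% ± 4.73 and 22.5% ± 6.76, and miR-30c 5.09% ± 1.05 and 5.36% ± 1.19. The differences between the diets were smaller than the SD within either diet for all 3 members. The make-up ranged most widely between dairy sample 1 and vegetable sample 7. In dairy sample 1 miR-30e held 60.8% of the family (95% Wilson interval 60.4 to 61.3) and miR-30a 32.9% (32.5 to 33.4). In vegetable sample 7 miR-30e held 81.4% (81.2 to 81.5) and miR-30a 13.6% (13.4 to 13.8). The share of miR-30c was highest in vegetable sample 8, at 7.12% (6.90 to 7.36), and lowest in dairy sample 3, at 4.11% (4.02 to 4.21). These Wilson intervals treat each implied read as independent and cover counting only, not spread between samples.

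**Figure D2:**
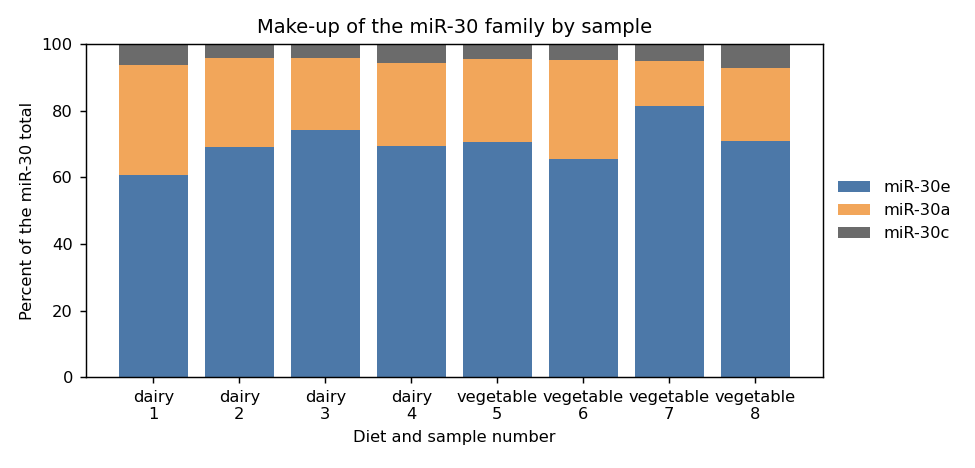
Percent of the total of the listed miR-30 members (y axis) taken by miR-30e, miR-30a and miR-30c in each sample, ordered by diet and sample number. MiR-30e holds 60.8 to 81.4% in all 8 samples, and vegetable sample 7 has the smallest miR-30a share, 13.6%.

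Ratios between members do not depend on the total to which RPM is scaled. They compare RNAs of one family, in which miR-30c can share a locus with either other member in human and mouse. Sequences were not used, so a shared seed of the measured RNAs was assumed from their names, which carry no arm (5p or 3p). The ratio of miR-30e to miR-30a, which lie at different loci in human and mouse, was 1.85, 2.59, 3.41 and 2.80 in dairy samples 1 to 4. In vegetable samples 5 to 8 it was 2.87, 2.20, 5.98 and 3.21. Vegetable sample 7 stood well above every other sample, and the remaining 7 overlapped between the diets. The mean log2 ratio was 1.38 ± 0.37 (SD, n = 4) on dairy fat and 1.73 ± 0.61 (SD, n = 4) on vegetable fat. The difference of 0.35 had a 95% interval from −0.63 to 1.7, with 3 of 4 vegetable fat ratios above the median ratio on dairy fat (two-sided exact permutation p = 0.400, adjusted over the 3 ratios 0.600). Without vegetable sample 7 the difference was 0.070.

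The ratio of miR-30e to miR-30c was 9.77, 16.1, 18.02 and 12.1 in dairy samples 1 to 4 and 15.4, 14.0, 16.2 and 9.94 in vegetable samples 5 to 8. Low and high ratios occurred on both diets, with dairy sample 1 and vegetable sample 8 below 10. The mean log2 ratio was 3.77 ± 0.40 (SD, n = 4) on dairy fat and 3.77 ± 0.32 (SD, n = 4) on vegetable fat. Their difference was 0.0045 with a 95% interval from −0.86 to 0.73 (two-sided exact permutation p = 0.971, adjusted 0.971). That interval leaves room for ratios lower or higher on vegetable fat, and the sign turned with single samples, being −0.15 when dairy sample 1 was left out and 0.16 when vegetable sample 8 was.

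The ratio of miR-30a to miR-30c was 5.29, 6.22, 5.29 and 4.32 in dairy samples 1 to 4 and 5.36, 6.37, 2.70 and 3.10 in vegetable samples 5 to 8. Vegetable samples 7 and 8 lay below all the others, while vegetable samples 5 and 6 lay above at least 3 of the 4 dairy fat samples. For dairy fat the mean log2 ratio was 2.39 ± 0.22 (SD, n = 4), and for vegetable fat 2.04 ± 0.60 (SD, n = 4). The difference of −0.35 had a 95% interval from −1.20 to 0.56 (two-sided exact permutation p = 0.400, adjusted 0.600), and without vegetable sample 7 it was −0.15. The smallest p that 4 samples against 4 allow is 0.0286.

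**Figure D3:**
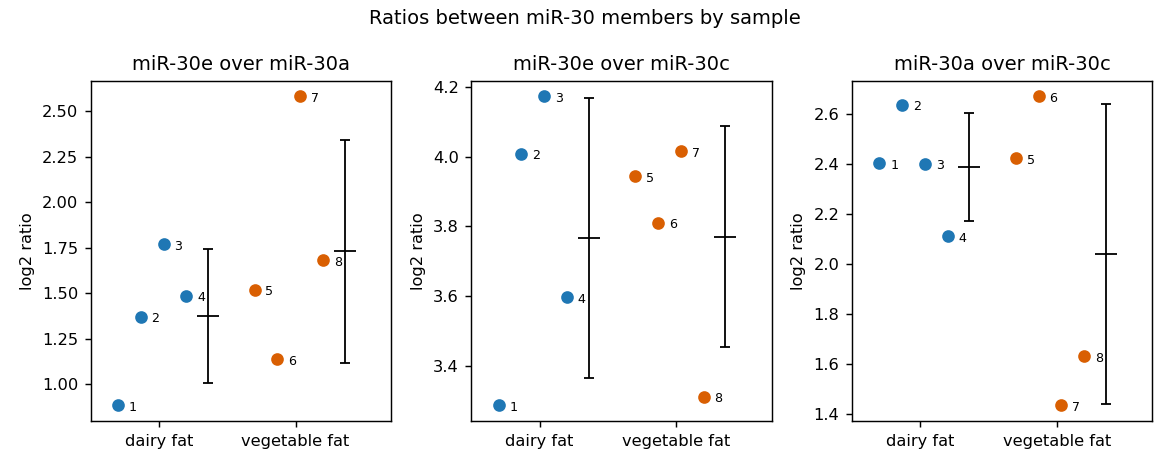
Log2 ratio of each pair of miR-30 members by diet, with each point a sample labelled by its number and the bar giving mean ± SD (n = 4); the y axes differ and do not start at 0. Vegetable sample 7 is the highest for miR-30e over miR-30a and the lowest for miR-30a over miR-30c, and the diets overlap in all 3 panels.

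When vegetable fat was compared with dairy fat, none of the 3 members passed the test. By limma on log2(RPM + 1), 0 of the 104 microRNAs tested (0%) passed at an adjusted p of 0.05, and 0 passed before adjustment. For miR-30e the mean was 24543 ± 6487 RPM (SD, n = 4) on dairy fat and 30092 ± 7862 RPM (SD, n = 4) on vegetable fat. The log2 estimate, vegetable fat minus dairy fat, was 0.29 ± 0.24 SE with a 95% interval from −0.24 to 0.82 (limma adjusted p = 0.999). Its level exceeded the dairy fat median in 4 of 4 vegetable fat samples, as did those of miR-18, miR-103a and other tested microRNAs. In fold terms the interval ran from 0.845 to 1.77, and the estimate was 0.14 without vegetable sample 7 and 0.46 without dairy sample 3.

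The mean of miR-30c was 1792 ± 360 RPM on dairy fat and 2246 ± 778 RPM on vegetable fat, with an estimate of 0.29 ± 0.30 SE and a 95% interval from −0.38 to 0.95 (limma adjusted p = 0.999). Its level exceeded the dairy fat median in 2 of 4 vegetable fat samples, and without vegetable sample 8 the estimate was 0.088. MiR-30a stood at 9363 ± 1814 RPM and 8959 ± 1586, with an estimate of −0.06 ± 0.22 SE and a 95% interval from −0.54 to 0.42 (limma adjusted p = 0.999). Its sign rested on single samples, being 0.047 without dairy sample 1 and 0.071 without vegetable sample 7. The interval of miR-30a was the seventh narrowest of the 104, reaching 0.48 to either side of the estimate against a median of 0.84. Over all 104 the median estimate was 0.07, with 64 above 0 and 40 below. MiR-30e and miR-30c lay 0.22 above that median and miR-30a 0.13 below it. Upper quartile factors moved the median of all microRNAs to −0.17, and under them the estimates were 0.057 for miR-30e, 0.053 for miR-30c and −0.30 for miR-30a.

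**Figure D4:**
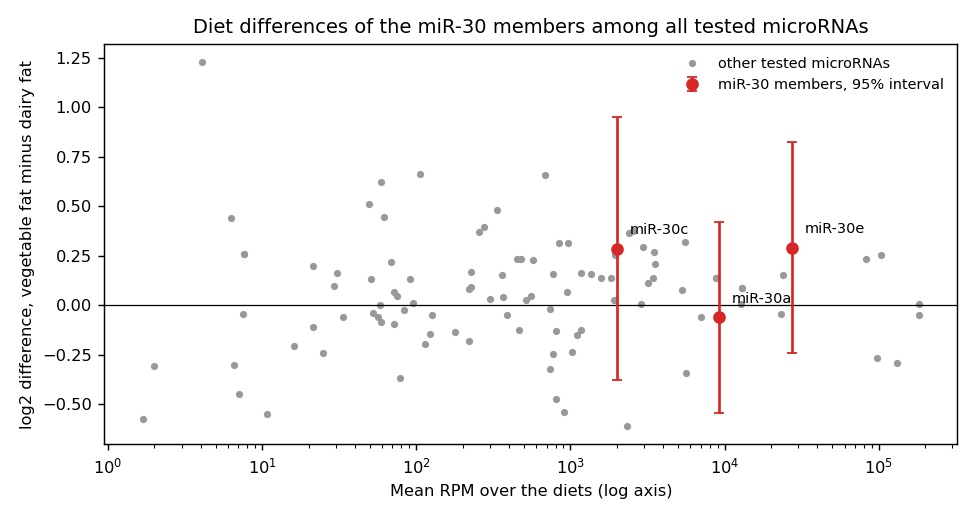
Log2 difference of vegetable fat minus dairy fat (y axis) against mean RPM (x axis, log scale) for the 104 tested microRNAs, with limma 95% intervals for the miR-30 members in red. All 3 intervals include 0, with estimates of 0.29 for miR-30e, 0.29 for miR-30c and −0.06 for miR-30a.

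MicroRNAs linked in human or rodent work to fat cells and insulin signalling had 12 of 23 fixed names tested, of which 6 had estimates above 0, 6 below and 0 passed the test. Their median estimate was 0.02, against 0.07 over all 104. The 3 most abundant of them were miR-26b, miR-26a and miR-103a. Cell markers overlapped between the diets as well. The red cell list had 4 of 12 names tested, all with estimates above 0 and 0 past the test (median 0.25), and took 6.14 to 9.92% of the reads on dairy fat and 6.74 to 11.8% on vegetable fat. The platelet list had 6 of 8 names tested, 4 above 0 and 2 below with 0 past the test (median 0.09), and took 16.7 to 21.7% and 15.4 to 21.6%. The leukocyte list had 3 of 6 names tested, 1 above 0 and 2 below with 0 past the test (median −0.18), and took 0.278 to 0.674% and 0.131 to 0.416%. These signs moved with the scaling: with upper quartile factors 25 of all 104 estimates were above 0, 3 of 4 in the red cell list, 0 of 6 in the platelet list, 0 of 3 in the leukocyte list and 3 of 12 in the metabolic list. No listed marker was at 0 in any sample, and the part of these cells in the levels of the miR-30 members was not tested.

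Read totals over the listed microRNAs differed between libraries, so the members were also fitted against log2 read total with diet as a term. Over all 104 microRNAs 36 (34.6%) passed at an adjusted p of 0.05 by limma, 2 rising with read total (1.92%) and 34 falling (32.7%). The count was 15 without dairy sample 1, 21 without vegetable sample 7 and 27 with trimmed mean scaling. None of the miR-30 members was among the 36. For each doubling of reads the slope was 0.15 ± 0.18 SE for miR-30e (limma adjusted p = 0.537), −0.28 ± 0.16 for miR-30a (limma adjusted p = 0.232) and −0.26 ± 0.22 for miR-30c (limma adjusted p = 0.371). The median slope of all microRNAs was −0.30, so miR-30a and miR-30c lay near it and miR-30e above it. Trimmed mean scaling moved that median to 0.04 and the slopes to 0.078 for miR-30a, 0.094 for miR-30c and 0.51 for miR-30e. Without vegetable sample 7 the slope of miR-30e was −0.0015, and without vegetable sample 8 that of miR-30c was −0.014. In the 3 libraries with fewest reads the ratio of miR-30e to miR-30c was 9.94, 9.77 and 14.0, and in the other 5 it was 12.1 to 18.02. The ratio of miR-30e to miR-30a was 3.21 in vegetable sample 8, which had the smallest read total. In the other 7 samples it was higher with each larger read total, from 1.85 at 1.41 M reads to 5.98 at 4.0 M. This order was seen after the values were known, and because the read totals fall into separate ranges no correlation is given.

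The members did not keep a fixed ratio to each other across the samples. The SD of the log2 ratio over 8 samples was 0.33 for miR-30e over miR-30c, 0.46 for miR-30a over miR-30c and 0.50 for miR-30e over miR-30a. Without vegetable sample 7 the last of these was 0.31. Over the 2485 pairs of the 71 microRNAs with a mean of at least 100 RPM the median was 0.61, and 11.0%, 28.5% and 35.9% of pairs had a smaller SD than the 3 family pairs in that order. The pairs within the miR-29 family, 3 members with one seed, had SDs from 0.16 to 0.37, and miR-26a and miR-26b had 0.26. The 5 let-7 microRNAs at that level had SDs from 0.31 to 0.69. These values are a description of 8 libraries, with no test.

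Each member had closer companions outside the family than inside it. Only 2 of the 70 possible partners of a member were in the family. A closest partner outside it was therefore likely from the numbers alone, and no conclusion about the family is drawn from it. For miR-30e the closest was miR-18, which in human and mouse lies in one cluster with miR-17, with an SD of the log2 ratio of 0.09 over 8 samples. MiR-30e was 30.1, 27.9, 28.6 and 29.1 times as abundant as miR-18 in dairy samples 1 to 4 and 31.4, 27.7, 25.6 and 29.5 times in vegetable samples 5 to 8. Only 3 of the 2485 pairs had a smaller SD, of which 2 held identical values in every sample. MiR-18 itself ran from 711 to 1568 RPM, and like miR-30e it was highest in vegetable sample 7 and next highest in dairy sample 3. MiR-30c ranked 15 and miR-30a ranked 39 among the 70 possible partners of miR-30e.

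For miR-30c the closest was miR-17, the neighbour of miR-18, with an SD of 0.16. The ratio of miR-30c to miR-17 ran from 0.583 in dairy sample 3 to 0.772 in dairy sample 4, and miR-17 was highest in vegetable sample 8 at 4344 RPM, as miR-30c was. MiR-660 and miR-29c followed with SDs of 0.21 and 0.22, and miR-30e ranked 5 of 70. For miR-30a the closest was miR-191, with an SD of 0.16, followed by miR-532 at 0.17 and miR-34a at 0.18. MiR-30c ranked 33 and miR-30e 39 among the partners of miR-30a. The next partners of miR-30e after miR-18 were miR-146b at 0.21 and miR-103a at 0.22, the value of miR-103a being identical to that of miR-103b in every sample. Closeness varied within the miR-17 cluster, which in human and mouse also holds miR-20, miR-19b and miR-92a. For miR-30c, miR-18 ranked 10, miR-92a 12, miR-20 33 and miR-19b 45 of 70. For miR-30e, miR-17 ranked 5, miR-20 10, miR-19b 20 and miR-92a 24. A link of the miR-30 members to that cluster was not tested.

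**Figure D5:**
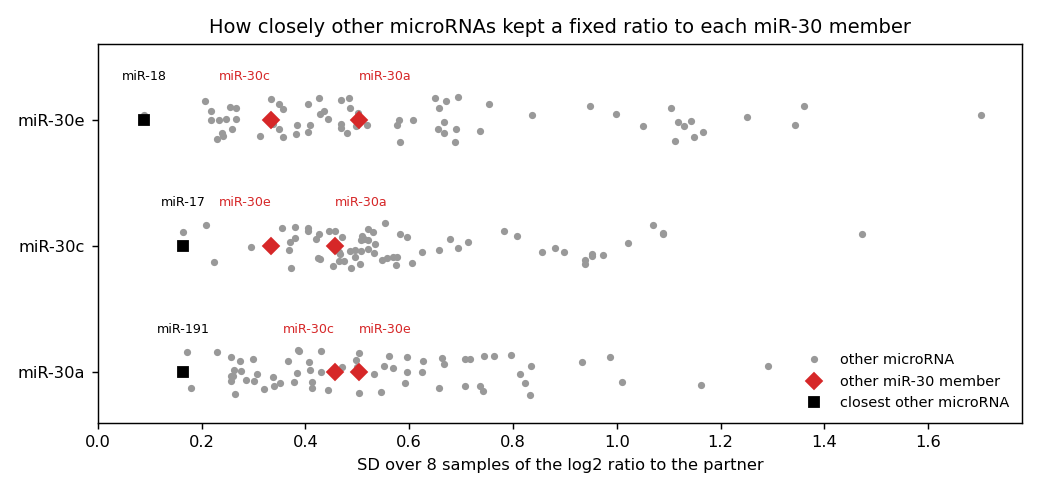
SD over 8 samples of the log2 ratio between each miR-30 member (rows) and each of 70 other microRNAs with a mean of at least 100 RPM, where a smaller value means a steadier ratio. Red diamonds mark the other miR-30 members, at 0.33 to 0.50, and black squares the closest other microRNA, at 0.09 for miR-18, 0.16 for miR-17 and 0.16 for miR-191; the vertical scatter of points has no meaning.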

How the data were processed

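The labels' protocols name the miRNeasy Micro kit for plasma RNA and the QIAseq miRNA kit for the libraries. Cutadapt 3.4 appears in the submitters' processing notes. Neither aligner, counter nor reference set, nor whether molecular identifiers were used, is stated in those sources. The deposited values are RPM, summing to 1000000 over 108 microRNAs in each sample, and names carry no arm (5p or 3p). Titles gave the diet and number of each sample. The column headers on vegetable fat show different running numbers but the same diet. Every pair of samples differed by more than counting noise (chi-square on implied reads of 304 or more per degree of freedom). None of the 3 pairs of identical rows held a miR-30 member.

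Limma 3.58.1 (R 4.3.3, trend and robust) was fitted on log2(RPM + 1) across 104 microRNAs that reached 1 RPM in 4 or more samples. P-values were adjusted by Benjamini-Hochberg over all 104. The fit was tested on simulated data with changes far larger than the estimates of the miR-30 members. That run therefore cannot tell how well differences of their size would be found. Log2 ratios were compared by exact permutation, two-sided, over all 70 divisions of the samples into 4 and 4, with intervals by inversion of that test. Named were the 3 members, the 3 closest partners of each by SD of the log2 ratio, miR-486 and miR-191, and the 3 most abundant of the metabolic list. The members, lists, tests and alternatives were chosen with earlier results of these data known. The values of other families, those of miR-18 and miR-17 by sample, the partner ranks within the miR-17 cluster and the ordering by read total were added after the values were seen. Sequences are not shown and positions were not used here. The shared seed of the measured RNAs was therefore assumed from their names, which carry no arm and cannot establish it.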

Additional observations from a re-analysis of the deposited data

Results flagged for a closer look

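Levels, shares and ratios of the miR-30 members and the family total gave 20 groups of 4 samples, and in 1 of them a single sample lay far from the other 3. Chance alone marks about 1 in 20. MiR-30e in dairy sample 3 was 34273 RPM, against 21174 to 21384 RPM in the other dairy fat samples. That sample held an implied 3.44 M (M, 1000000) reads, the most on dairy fat.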

How the results depend on the processing

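In all 16 alternatives run, 0 microRNAs passed the threshold, with smallest adjusted p from 0.560 to 0.999. The estimates of miR-30e and miR-30c stayed above 0 in all 16. With 1 sample left out they ran from 0.14 to 0.46 and from 0.088 to 0.43, and with upper quartile factors they were 0.057 and 0.053. That of miR-30a was −0.30 with upper quartile factors and ran from −0.16 to 0.071 with 1 sample left out, turning to 0.047 without dairy sample 1 and 0.071 without vegetable sample 7. With 1 sample left out, the diet difference in log2 ratio ran from 0.070 to 0.55 for miR-30e over miR-30a, from −0.56 to −0.15 for miR-30a over miR-30c, and from −0.15 to 0.16 for miR-30e over miR-30c, where 5 of 8 such fits turned below 0. The SD of the log2 ratio of miR-30e to miR-30a ran from 0.31 to 0.54. Slopes on read total without 1 sample ran from −0.0015 (without vegetable sample 7) to 0.39 for miR-30e, from −0.38 to −0.21 for miR-30a and from −0.46 to −0.014 for miR-30c. Trimmed mean scaling moved the median slope of all microRNAs from −0.30 to 0.04 and turned the slopes to 0.078 for miR-30a and 0.094 for miR-30c, while that of miR-30e was 0.51 (limma adjusted p = 0.0529). With the 6 most abundant microRNAs left out of the total, the family took 17.2% in place of 3.85%, by construction. Not run were the edgeR and DESeq2 alternatives on implied reads. No paired analysis was possible because dairy and vegetable samples share no number.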
